A study of Danio rerio with 6 samples.

Results

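T cell and cytotoxic cell genes were followed in the kidney marrow of adult zebrafish of the genotype grna-/-, mutant for a granulin gene. The set was a list of 43 gene symbols, 25 for T cells and 18 for cytotoxic cells. Of these, 29 matched a gene row of the same name among 15292 genes, 16 of the T cell symbols and 13 of the cytotoxic ones. The 14 symbols with no row of that name (cd8b, cd28, ctla4a, cd2, sh2d1ab, ikzf3, cd5, cd6, txk, prf1.7, gzma, gzm3.2, gzmk and ifng1) were not analysed here, apart from a row under an older name of ifng1.

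The 6 libraries came from 6 adult fish, 3 grna-/- mutants and 3 grna+/+ siblings, 1 kidney marrow each, taken out after the heart had been bled and strained to a suspension with no sorting named. Neither genotype carried a further allele or treatment in the labels, and the labels give no age, no sex and no account of which part of grna was altered. Expression is given as TPM, which corrects for gene length and scales every library to the same sum. Reads counted per library ran from 11080875 to 14075134. Transcript of grna had a mean of 144 TPM in the control fish and of 70.4 TPM in the mutants (log2 fold change -1.02, limma adjusted p = 0.0186), in the direction of the labels, and the call was lost without any 1 of the mutants or without grna+/+ replicate 3 (adjusted p from 0.0526 to 0.0930). Blood and kidney markers were present in every library. The neutrophil peroxidase gene mpx was at 683 TPM or more, the globin gene hbaa1 at 10162 or more, the kidney cadherin gene cdh17 at 306 or more and the B cell receptor gene cd79a at 87.2 or more. The T cell kinase gene lck, at 5.95 to 9.05 TPM, was present at a far lower level.

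T cells recognise antigen through a receptor whose signal passes from CD3 and zeta chains through the kinases Lck and Zap70 to the adaptor Lat. CD4 and CD8 are the co-receptors that mark helper and killer subsets. Natural killer cells and killer T cells destroy target cells with granule proteins: perforins open pores, granzymes are proteases that enter through them, and NK-lysins are small membrane-disrupting peptides of the saposin-like family. In zebrafish both lineages are found in the kidney marrow, where T cells arrive after maturing in the thymus. In these bulk samples, fewer cells of a type and less RNA per cell cannot be told apart.

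No gene of either set was called between the genotypes. limma called none of the 16 T cell genes and none of the 13 cytotoxic genes at an adjusted p below 0.05, when 1.15% of the 10750 genes tested were called, 0.660% higher and 0.493% lower in grna-/-. At an unadjusted p below 0.05 there were 3 T cell genes (cd247, sla2 and lat) and 1 cytotoxic gene (prf1.3), against 17.6% of all genes tested. A second method, voom on recovered read numbers, also called none. All 29 genes passed the expression filter, which required 1 TPM on average. cd8a, at a mean of 0.776 TPM in grna+/+ and 1.74 TPM in grna-/-, fell under the filter without grna-/- replicate 3. The median log2 fold change, grna-/- minus grna+/+ on the log2(TPM + 1) scale, was -0.06 for the T cell genes and 0.21 for the cytotoxic genes, beside 0.07 for all genes tested. With 1 library left out the T cell median ran from -0.10 to 0.06, above 0 without grna-/- replicate 1 (0.02) or grna+/+ replicate 1 (0.06). It was -0.16 with quantile normalization and -0.12 with median ratio scaling, where the median of all genes was 0.02 and 0.003. The cytotoxic median ran from 0.11 without grna+/+ replicate 3 to 0.40 with library weights. A positive fold change was found for 7 of 16 T cell genes and 9 of 13 cytotoxic genes, and for 57.5% of all genes. The 95% interval of the fold change lay inside a doubling or halving for 12 of the T cell genes and 7 of the cytotoxic genes, against 70.5% of all genes, so larger changes remain possible for the rest. With 3 fish against 3, an exact permutation test of a single gene cannot go below p = 0.1.

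As transcripts, these genes were mostly scarce. The mean TPM over the 6 libraries ran from 1.257 for cd8a to 36.5 for dusp2 among the T cell genes, with a median over genes of 5.69, and from 1.38 for prf1.5 to 881 for fcer1gl among the cytotoxic genes, with a median of 6.22. The median over all tested genes was 16.1. Only sla2, dusp2 and cd247 among the T cell genes lay above that last value, together with fcer1gl and the 4 NK-lysin genes among the cytotoxic ones. For cd247 that level rested on 10 to 33 recovered reads per library and on the gene length used for TPM.

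**Figure D1:**
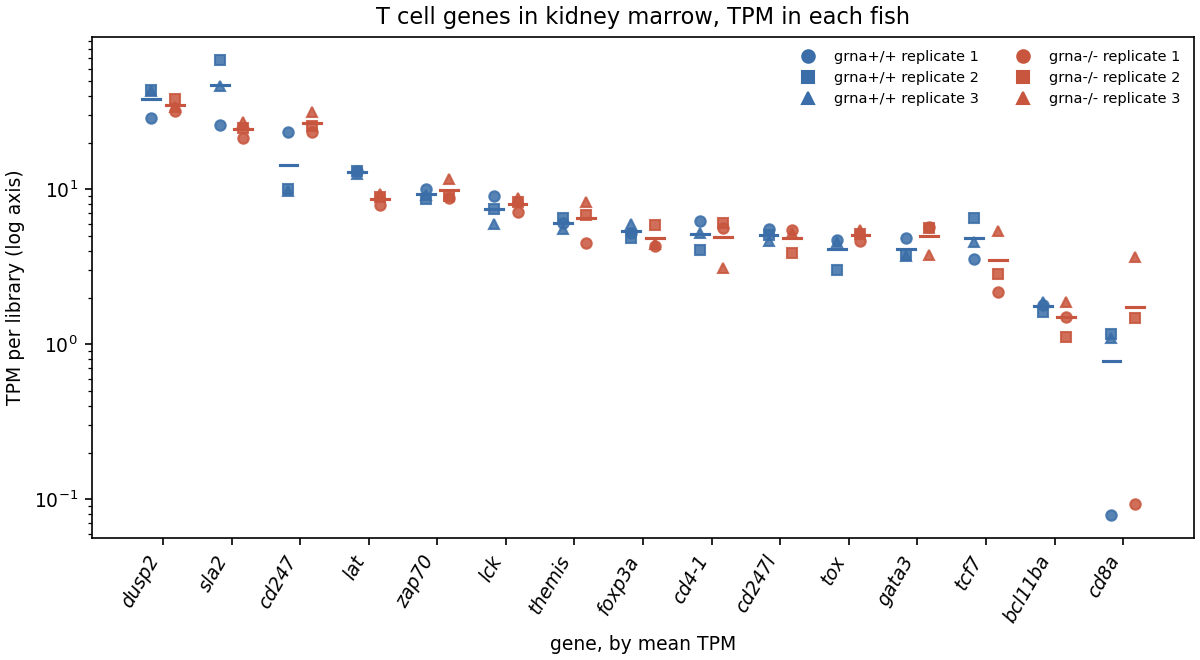
TPM of the T cell genes reported by name in each fish on a log axis, ordered by mean, with symbols for the replicate number of the label, blue for grna+/+ and red for grna-/-, and bars for group means. Groups are apart for cd247 and lat alone, and cd8a is near 0.1 TPM in the replicate 1 fish of both genotypes.

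Co-receptor genes differed more between fish than between genotypes. cd4-1, a CD4 co-receptor gene, was at 6.22, 4.07 and 5.19 TPM in grna+/+ replicates 1 to 3 and at 5.66, 6.08 and 3.1 TPM in grna-/- replicates 1 to 3. Its groups overlapped, with a log2 fold change of -0.08 (95% interval -0.69 to 0.54, adjusted p = 0.901). cd8a, which encodes the alpha chain of CD8, measured 0.0791, 1.16 and 1.09 TPM in the control fish against 0.0937, 1.47 and 3.65 TPM in the mutants.

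The cd8a values rested on 1, 13 and 14 reads in grna+/+ and on 1, 20 and 43 reads in grna-/-. A single read allows up to 0.441 TPM in grna+/+ replicate 1 and up to 0.522 TPM in grna-/- replicate 1 (exact Poisson 95% bounds, counting error only). The lower bounds of the other 4 fish were 0.596 TPM or more. So the fish numbered 1 in each genotype lay below the other 4 by more than counting error. This pattern was picked out after the values were seen, and is not particular to number 1. Both fish of a number were at or under the lowest of the other 4 divided by 5 in few of 10750 genes. There were 4 such genes for number 1, cd8a among them, 4 for number 2 and 3 for number 3. cd8a had a log2 fold change of 0.46 with a wide interval, -0.76 to 1.67 (limma adjusted p = 0.669). The ratio of cd4-1 to cd8a was 3.51 and 4.76 in grna+/+ replicates 2 and 3 and 4.14 and 0.849 in grna-/- replicates 2 and 3, and was not read in the fish with 1 read.

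The signalling chain genes of the receptor differed in pattern. cd247, a gene for the zeta chain that carries the activation motifs, measured 23.2, 10.1 and 9.67 TPM in the control fish against 23.3, 25.7 and 31.7 TPM in the mutants. The groups did not overlap, but grna+/+ replicate 1 stood next to the mutants. The means were 14.3 ± 7.71 and 26.9 ± 4.31 TPM (SD, n = 3 each). On the log2(TPM + 1) scale the fold change was 0.96, with an SE of 0.319 and a limma adjusted p of 0.199. Its reads were few, between 10 and 33 per library. Without grna+/+ replicate 1 the log2 fold change was 1.35 and the adjusted p 0.0403, in a range of 0.00927 to 0.399 over all alternatives. The related gene cd247l had overlapping groups, at 3.89 to 5.55 TPM over the 6 fish (log2 fold change -0.06, adjusted p = 0.892). cd247 stood at 2.0 to 4.19 times cd247l in grna+/+ and at 4.27 to 6.60 times in grna-/-, as ratios of TPM. As recovered reads cd247l was not the lower gene, at 31 to 41 per library. That cd247 exceeded it in TPM thus rests on the gene lengths used for TPM, which were not examined.

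The kinases lck and zap70, just below the receptor, had overlapping groups and narrow intervals. lck, the kinase that starts the signal, measured 9.05, 7.41 and 5.95 TPM in the control fish against 7.17, 8.27 and 8.75 TPM in the mutants. zap70, which binds the phosphorylated zeta chain, measured 10.001, 8.59 and 9.24 TPM in the control fish against 8.79, 9.06 and 11.7 TPM in the mutants. Log2 fold changes were 0.11 for lck and 0.07 for zap70, with 95% intervals between -0.35 and 0.57.

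lat, the adaptor that the kinases phosphorylate, was the T cell gene with the smallest p. It measured 13.1, 13.1 and 12.5 TPM in the control fish against 7.89, 8.93 and 9.25 TPM in the mutants. The grna-/- fish all lay below the grna+/+ fish, and the spread within each genotype was small. Means were 12.9 ± 0.336 and 8.69 ± 0.712 TPM (SD, n = 3 each), 0.673 times the grna+/+ level (log2 fold change -0.52, SE 0.162). lat did not pass over all genes (limma adjusted p = 0.177). It was one of 2 T cell genes whose groups did not overlap, when 24.6% of all genes tested showed this, 14% with the mutants higher and 10.6% with the mutants lower. Set against zap70 in the same library, lat stood at 1.31, 1.53 and 1.36 times its TPM in grna+/+ and at 0.897, 0.986 and 0.790 times in grna-/-. The ratios were chosen after the values were seen and are given without a test. lat lies on chromosome 3 together with grna in RefSeq assembly GRCz12tu, with 322 protein-coding genes between them.

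sla2, an adaptor gene whose mammalian product dampens receptor signalling in lymphocytes, measured 26.1, 68.6 and 46.4 TPM in the control fish against 21.5, 24.9 and 27.0 TPM in the mutants. The grna-/- fish were alike, while the grna+/+ fish were spread over a 2.63-fold range and replicate 1 lay among the mutants. The log2 fold change was -0.82 (95% interval -1.54 to -0.09, limma adjusted p = 0.245), and it ran from -1.18 without grna+/+ replicate 1 to -0.50 without grna+/+ replicate 2. dusp2, a phosphatase gene of activated lymphocytes and myeloid cells, measured 28.6, 43.4 and 43.1 TPM in the control fish against 32.0, 38.4 and 33.7 TPM in the mutants. Its groups overlapped, with a log2 fold change of -0.12. themis, a regulator of thymocyte selection in mice, ran from 4.51 to 8.23 TPM over the 6 fish, and both ends of that range were grna-/- fish.

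Transcription factors of T cells showed no separation of the genotypes. tcf7, a factor needed for early T cells, measured 3.54, 6.5 and 4.54 TPM in the control fish against 2.19, 2.85 and 5.37 TPM in the mutants (log2 fold change -0.42, adjusted p = 0.489). tox, a factor of CD4 lineage and exhausted T cells in mice, measured 4.69, 2.99 and 4.59 TPM in the control fish against 4.65, 5.15 and 5.45 TPM in the mutants (log2 fold change 0.27, adjusted p = 0.512). Groups overlapped for both genes. gata3, which directs helper T cells and innate lymphoid cells, averaged 4.097 ± 0.626 and 5.003 ± 1.08 TPM. foxp3a, the factor of regulatory T cells, averaged 5.35 ± 0.550 and 4.88 ± 0.871 TPM, a log2 fold change of -0.12 with a 95% interval of -0.57 to 0.34. bcl11ba, related to the T cell commitment factor of mammals, averaged 1.76 ± 0.132 and 1.49 ± 0.370 TPM.

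**Figure D2:**
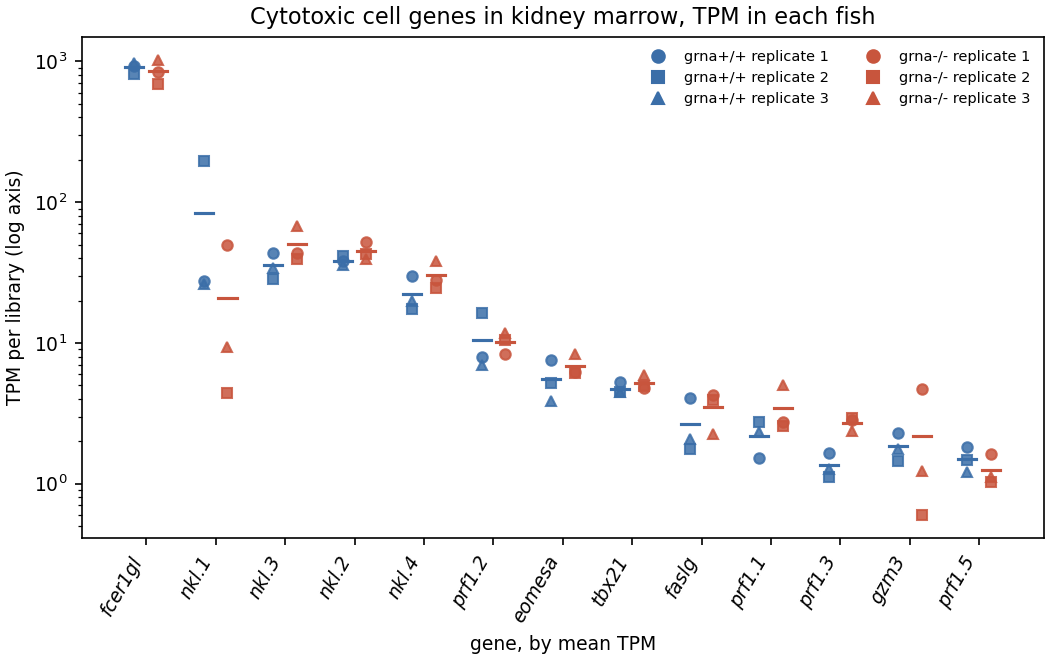
TPM of the 13 cytotoxic genes in each fish on a log axis, ordered by mean and drawn as for the T cell genes. nkl.1 spans from 4.38 to 197 TPM, while nkl.2, nkl.3 and nkl.4 stay within 17.5 to 67.4 TPM, and only prf1.3 has groups that do not overlap.

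The cytotoxic effector genes were led in level by the NK-lysins. nkl.1, nkl.2, nkl.3 and nkl.4 are consecutive protein-coding genes on chromosome 17 in RefSeq assembly GRCz12tu. They belong to one gene family, and their sequences were not compared here. How the authors' counting treated reads that match more than 1 gene is not given, so each level is uncertain.

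nkl.1 measured 27.4, 197 and 26.0 TPM in the control fish against 49.3, 4.38 and 9.39 TPM in the mutants. It varied 45.0-fold between fish, the widest range of the cytotoxic genes, with its highest value in grna+/+ replicate 2. The group means were 83.6 ± 98.5 and 21.0 ± 24.6 TPM, each with an SD above the mean (log2 fold change -1.92, SE 0.953, limma adjusted p = 0.332). Without grna+/+ replicate 2 the log2 fold change was -0.97, and over all alternatives it lay between -2.84 and -0.13. Reads ran from 20 to 741 per library, so the range between fish was not one of counting error.

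Its neighbours behaved otherwise. nkl.2 measured 38.1, 41.3 and 35.6 TPM in the control fish against 51.7, 42.5 and 39.6 TPM in the mutants (log2 fold change 0.21, adjusted p = 0.501). nkl.3 measured 43.7, 28.6 and 34.3 TPM in the control fish against 43.6, 39.7 and 67.4 TPM in the mutants (log2 fold change 0.47, adjusted p = 0.342). nkl.4 measured 29.8, 17.5 and 19.9 TPM in the control fish against 28.1, 24.6 and 38.0 TPM in the mutants (log2 fold change 0.43, adjusted p = 0.383). In all 3 the groups overlapped. For nkl.3 and nkl.4 the fish came in the same order, with grna-/- replicate 3 highest and grna+/+ replicate 2 lowest. The ratio of nkl.3 to nkl.4 held between 1.46 and 1.78 in the 6 libraries. nkl.1 made up 69.3% of the summed NK-lysin TPM in grna+/+ replicate 2 and 3.94% in grna-/- replicate 2.

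**Figure D3:**
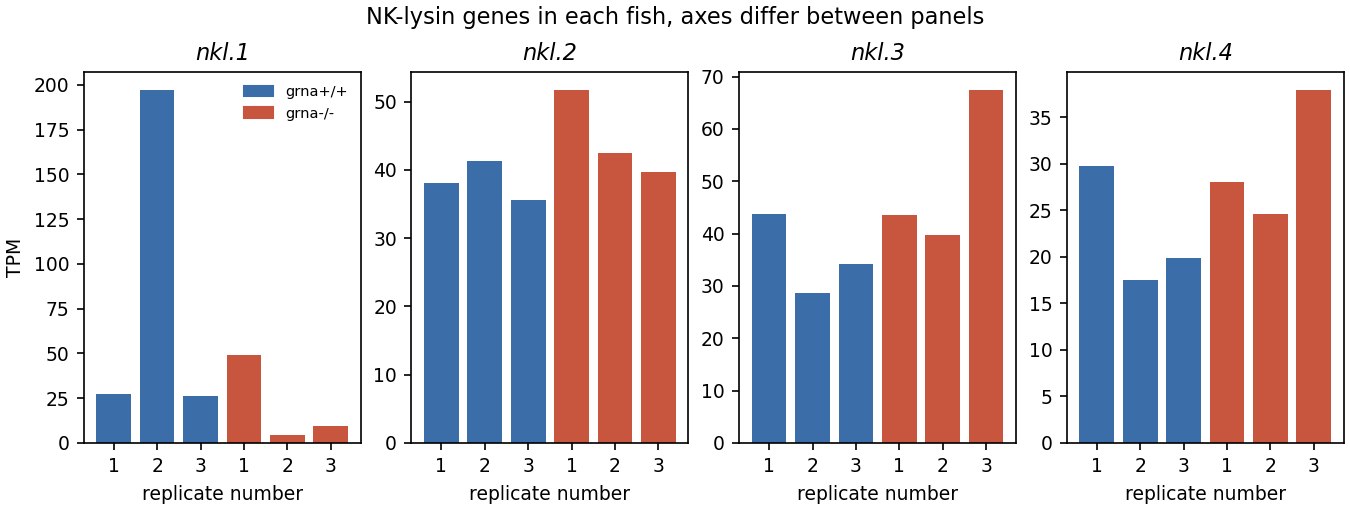
TPM of the 4 NK-lysin genes in each fish as bars from 0, with a separate scale in each panel, blue for grna+/+ and red for grna-/-. The nkl.1 bar of grna+/+ replicate 2 reaches 197 TPM and the same fish has the lowest bar for nkl.3 and nkl.4.

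Set against the T cell genes of the same library, the NK-lysins other than nkl.1 gave overlapping ratios in the genotypes. The sum of nkl.2, nkl.3 and nkl.4 was 1.83, 1.98 and 2.13 times the sum of lck, zap70, cd247, cd247l and lat in grna+/+, as TPM. It was 2.35, 1.91 and 2.18 times that sum in grna-/-, so the groups overlapped. With nkl.1 included, as the ratio was planned, it was 2.28, 6.44 and 2.75 in grna+/+ and 3.28, 1.99 and 2.32 in grna-/-. Much of the T cell sum was cd247, a gene of few reads. It gave 23.2 of 60.9, 10.1 of 44.2 and 9.67 of 42.0 TPM in grna+/+. In grna-/- it gave 23.3 of 52.6, 25.7 of 55.9 and 31.7 of 66.6 TPM. The ratios are a description without a test.

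Perforin genes, which encode the pore-forming protein of cytotoxic granules, were low. prf1.3 measured 1.66, 1.11 and 1.27 TPM in the control fish against 2.85, 2.92 and 2.38 TPM in the mutants. All grna-/- fish, with 36 to 51 reads, lay above all grna+/+ fish, with 16 to 27 reads. Means were 1.35 ± 0.284 and 2.71 ± 0.290 TPM (SD, n = 3 each). The ratio of these means was 2.01. On the log2(TPM + 1) scale, which understates the change of so low a gene, the fold change was 0.67 with an SE of 0.218. It ran from 0.51 with quantile scaling to 1.04 with voom, and the gene did not pass over all genes (limma adjusted p = 0.196). It was the single cytotoxic gene with no overlap, beside the 24.6% of all genes tested.

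Other perforin genes did not share this separation. prf1.1 measured 1.53, 2.72 and 2.32 TPM in the control fish against 2.72, 2.57 and 5.0 TPM in the mutants (log2 fold change 0.45, adjusted p = 0.419). It lies on chromosome 3 with 27 protein-coding genes between it and grna in GRCz12tu. prf1.2 measured 7.98, 16.4 and 6.91 TPM in the control fish against 8.33, 10.4 and 11.8 TPM in the mutants (log2 fold change 0.05, adjusted p = 0.945), and its highest value was in grna+/+ replicate 2, the fish that was highest for nkl.1. Groups overlapped for both of them. prf1.5 averaged 1.504 ± 0.305 and 1.257 ± 0.320 TPM. Perforin genes are also a family whose sequences were not compared here, and their levels are uncertain for the same reason as those of the NK-lysins.

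Other killing molecules rested on few reads. gzm3, a granzyme gene, ran from 1.44 to 2.31 TPM in grna+/+ and from 0.594 to 4.71 TPM in grna-/-, on 5 to 31 reads. faslg, the ligand of the death receptor Fas, measured 4.06, 1.76 and 2.08 TPM in the control fish against 4.26, 3.92 and 2.27 TPM in the mutants, with overlapping groups (log2 fold change 0.32, adjusted p = 0.590). A row named ifng1-2, an older name of the interferon gamma gene ifng1 in the RefSeq gene table, stood outside the set. It measured 0.361, 2.24 and 2.13 TPM in the control fish against 2.14, 2.68 and 3.1 TPM in the mutants, on 2 to 16 reads (log2 fold change 0.59, adjusted p = 0.409).

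The regulators of the cytotoxic programme had overlapping groups. eomesa, a T-box factor of natural killer and memory T cells, averaged 5.54 ± 1.85 and 6.91 ± 1.29 TPM (log2 fold change 0.30, 95% interval -0.28 to 0.88). tbx21, the related T-bet gene, averaged 4.74 ± 0.461 and 5.21 ± 0.647 TPM (log2 fold change 0.11, 95% interval -0.32 to 0.55). fcer1gl, a gene for a gamma-chain-like adaptor of Fc and natural killer receptors, measured 933, 819 and 974 TPM in the control fish against 839, 688 and 1031 TPM in the mutants, with overlapping groups. It was 16.8 times as abundant as the next cytotoxic gene, nkl.1, by mean TPM. Such adaptors also serve myeloid cells.

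**Figure D4:**
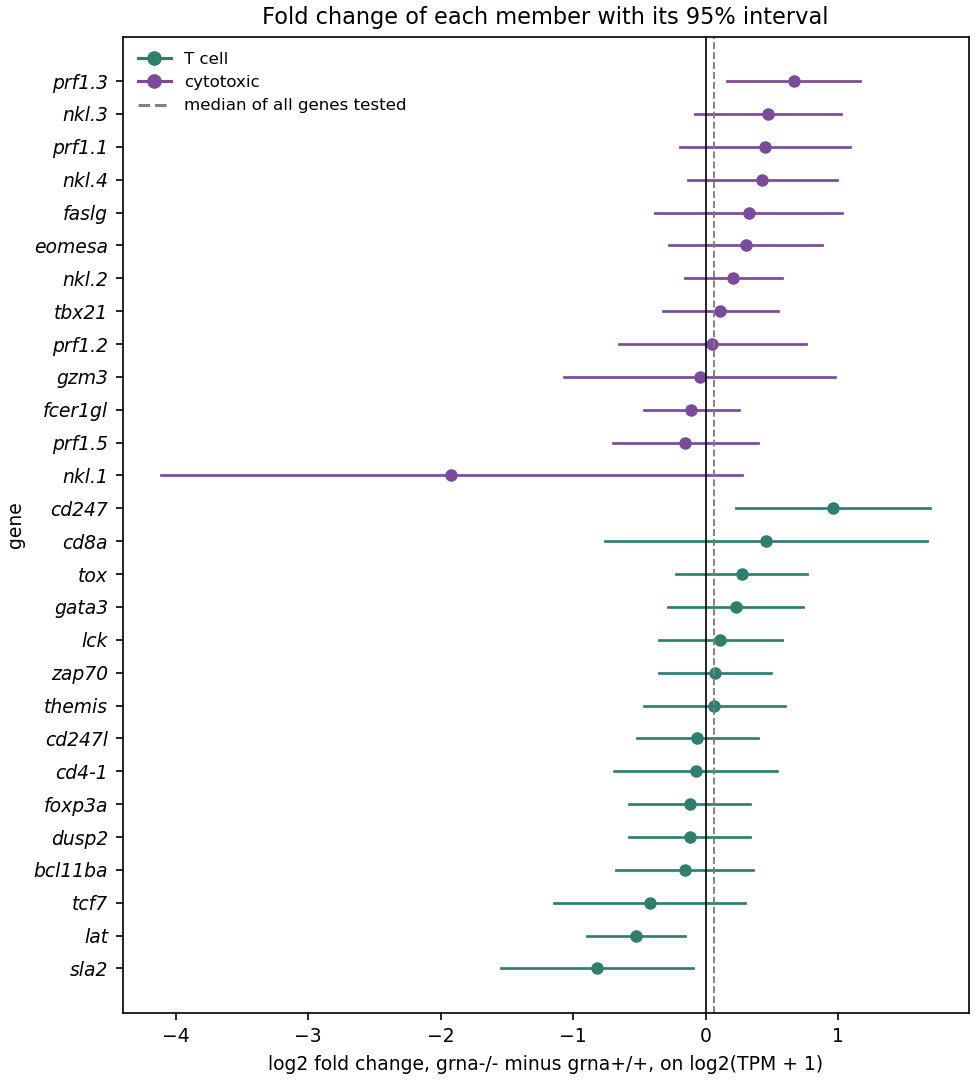
Log2 fold change of each gene reported by name, grna-/- minus grna+/+ on log2(TPM + 1), as points with 95% intervals from limma, green for T cell and purple for cytotoxic genes. The dashed line at 0.07 is the median of all genes tested, and only the intervals of cd247, sla2, lat and prf1.3 leave out 0.

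Fish of the same genotype differed in both sets of genes. grna-/- replicate 3 held the highest value for 5 of 16 T cell genes and 6 of 13 cytotoxic genes, and for 22.2% of all genes tested. grna-/- replicate 1 held the lowest value for 6 of the T cell genes and for 9.86% of all genes. As a mean over genes of the log2 distance from each gene's mean, the T cell level was 0.01, 0.02 and -0.01 in grna+/+ and -0.18, 0.02 and 0.15 in grna-/-. The cytotoxic level was 0.05, 0.08 and -0.21 in grna+/+ and 0.24, -0.23 and 0.08 in grna-/-. The grna-/- fish thus lay on both sides of the grna+/+ fish for both sets, with nkl.1 counted among the cytotoxic genes. nkl.1 varied 45.0-fold, was lowest in grna-/- replicate 2 and highest in grna+/+ replicate 2, and weighs on the cytotoxic level. Without nkl.1, grna-/- replicate 2 lay among the grna+/+ fish, and grna-/- replicates 1 and 3 lay above them. Lying on both sides thus rests on nkl.1 for the cytotoxic set, and the values of the level without it are not given. The residual SD between fish of a genotype had a median of 0.243 on the log2 scale for the T cell genes, 0.349 for the cytotoxic genes and 0.257 for all genes tested.

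Erythroid and neutrophil markers had larger median differences than either set. The erythroid level was -0.36, -0.80 and -0.15 in grna+/+ and 0.35, 0.60 and 0.36 in grna-/-. Of 19 erythroid genes tested 5 rose, when 0.660% of all genes did, and the median log2 fold change was 0.90. That count was 0 without grna+/+ replicate 3, grna-/- replicate 1 or grna-/- replicate 2, 1 without grna-/- replicate 3, 3 without grna+/+ replicate 1, 1 with no filter, 2 with a filter of 5 TPM, 3 with median ratio scaling, 3 with voom, 8 with the replicate numbers as a block and 12 with library weights. Of all 10750 genes, 149 were called higher with the block and 1656 with library weights. The 5 of the main fit were nt5c2l1, ank1a, sox6, alas2 and epb41b, the last a red cell membrane skeleton gene, with log2 fold changes from 1.258 to 1.75. The summed TPM of the erythroid list was 22156 to 52237 in grna+/+ and 82839 to 96007 in grna-/-. Neutrophil markers had a median of -0.72 over 16 genes tested, of which 12 had an unadjusted p below 0.05, beside 17.6% of all genes. None was called over all genes by the main limma fit or voom. With the block 5 fell, and with library weights 11, beside 122 and 791 of all 10750 genes. Quantile normalization called 1 lower, as did leaving out grna-/- replicate 3, and leaving out grna+/+ replicate 1 called 2 lower. Their summed TPM was 52992 to 59985 in grna+/+ and 26794 to 49609 in grna-/-. B cell markers had no called gene among 13 in the main limma fit or voom. An unadjusted p below 0.05 was found for 2, beside 17.6% of all genes. Their summed TPM was 1469 to 2041 in grna+/+ and 1849 to 2671 in grna-/-. Most of it was cd74a, a gene of the macrophage list too, at 881 to 1286 and 1317 to 2192 TPM. As a mean over genes the B cell level overlapped, at 0.05, 0.15 and -0.18 in grna+/+ and -0.13, -0.18 and 0.29 in grna-/-. The median log2 fold change of the B cell markers was 0.23, and -0.06 without grna+/+ replicate 3. Library weights called 2 of them higher and 1 lower, beside 1656 and 791 of all 10750 genes, and leaving out grna+/+ replicate 1 called 1 lower. In the remaining lists, limma called 0 of 15 macrophage genes, 0 of 24 cell cycle genes and 0 of 16 stress and RNA quality genes. An unadjusted p below 0.05 was found for 3, 6 and 5 of them, beside 17.6% of all genes, and voom called none of these. Their median log2 fold changes were 0.02, 0.35 and -0.41. Among 11 thrombocyte genes f13a1a.1, a clotting factor gene, fell (lost with voom, 0.0590, and without grna-/- replicate 2, 0.0558). Among 5 eosinophil and mast cell genes cebpa, a myeloid factor gene, fell, and the call was kept in 1 of 6 fits that left out a library. Among 18 kidney genes 2 fell, of which podxl, a podocyte gene, kept its call in 1 of those 6 fits. Beside these counts, 0.493% of all genes tested were called lower. With the replicate block aqp1a.1, a water channel gene of kidney and red cells (log2 fold change 1.15, limma adjusted p = 0.0388), slc12a3, a salt transporter gene of the kidney tubule (1.05, 0.0290), and gp1bb, a thrombocyte receptor gene (1.12, 0.0415), rose too. The pairs of the block were inferred from these same data, with no label behind them. TPM is a share of each library, and the part of these other cells in the T cell and cytotoxic values was not tested.

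**Figure D5:**
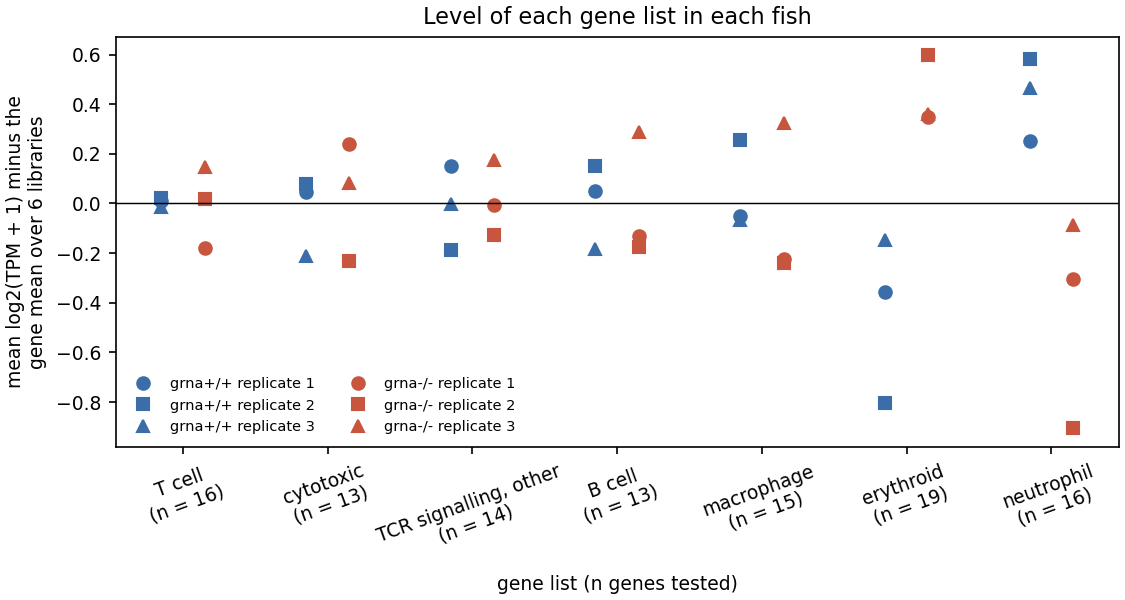
Level of 7 gene lists in each fish, as the mean over tested genes of log2(TPM + 1) minus the mean of that gene over the 6 libraries. T cell and cytotoxic genes stay within 0.24 of 0 with overlapping groups, while erythroid genes lie above 0 in the 3 grna-/- fish and below 0 in the 3 grna+/+ fish, and neutrophil genes the reverse.

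Genes of receptor signalling outside the set also gave no call. They summed to 1665 to 2468 TPM per library, against 42.0 to 66.6 TPM for lck, zap70, cd247, cd247l and lat. Which cells gave these transcripts was not tested. Of 14 tested, the main limma fit and voom called none, and the median log2 fold change was 0.06. An unadjusted p below 0.05 was found for 2, beside 17.6% of all genes. Library weights called 1 higher and 3 lower, beside 1656 and 791 of all 10750 genes. fynb, a Src family kinase gene related to Lck, measured 6.36, 3.73 and 5.42 TPM in the control fish against 9.08, 10.04 and 11.7 TPM in the mutants (log2 fold change 0.89, adjusted p = 0.116). stim1a, a calcium sensor of the endoplasmic reticulum, averaged 104 ± 16.6 and 73.0 ± 8.09 TPM (adjusted p = 0.191). Groups did not overlap for either gene, the 1 higher and the 1 lower of the 14 with no overlap, beside 14% and 10.6% of all genes tested.

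Among 28 other transcription factors of T cells tested, ets1 fell and none rose, when 0.493% of all genes were called lower. An unadjusted p below 0.05 was found for 6 of them, beside 17.6% of all genes. Groups did not overlap for 2 with the mutants higher and 6 with the mutants lower, beside 14% and 10.6% of all genes tested. ets1, a factor used by lymphocytes and by vessel cells, measured 110, 160 and 138 TPM in the control fish against 67.6, 48.0 and 68.0 TPM in the mutants. The grna-/- fish lay apart and below, by -1.14 on the log2 scale (SE 0.199, limma adjusted p = 0.0457). The call was lost without grna+/+ replicate 2 (0.0791) or 3 (0.160) and without grna-/- replicate 1 (0.125), 2 (0.156) or 3 (0.0935), with voom (0.0504), with no filter (0.0786), with a filter of 5 TPM (0.0533) and with median ratio scaling (0.0543). Its level was 18.2 times that of lck and 14.6 times that of zap70, by mean TPM of the grna+/+ fish. Which cells gave the ets1 transcript or its fall was not tested. The vessel and stroma markers had a median log2 fold change of -0.37 over 20 genes tested, of which tcf21 and stab2 fell, kept in 4 and 1 of 6 fits that left out a library. The chemokine gene cxcl12a of that list fell with the replicate block (log2 fold change -1.15, limma adjusted p = 0.0201, and 0.0715 without the block). notch1b, a receptor of the pathway that commits T cells, averaged 27.6 ± 2.42 and 15.4 ± 3.01 TPM and did not pass (adjusted p = 0.0873).

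Receptor, homing and help genes had no called member among 19 in limma or voom. Of these, 5 had an unadjusted p below 0.05, beside 17.6% of all genes. The median log2 fold change was -0.08, and 0.006 without grna+/+ replicate 1. The mean level of the list was 0.09, 0.15 and 0.07 in grna+/+ and -0.12, -0.16 and -0.02 in grna-/-, given without a test. tnfrsf18, a costimulatory receptor of T cells, measured 1.6, 4.01 and 4.06 TPM in the control fish against 0.815, 0.532 and 0.370 TPM in the mutants (log2 fold change -1.37, limma adjusted p = 0.0890). It passed without grna+/+ replicate 1 (0.0403), in a range of 0.00428 to 0.280 over all alternatives. Its reads were few, 14, 31 and 36 in grna+/+ and 6, 5 and 3 in grna-/-. The ratio of means was 0.178, and the log2(TPM + 1) scale understates the change of so low a gene. tnfrsf9a, a related receptor, averaged 13.8 ± 3.61 and 7.71 ± 2.25 TPM (adjusted p = 0.211). In both genes every grna-/- fish lay below every grna+/+ fish. Of the 19, groups did not overlap for 5 with the mutants lower and 0 with the mutants higher, beside 10.6% and 14% of all genes tested.

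Genes for granule loading and release were mixed. Of 13 tested none was called by limma or voom, 7 had an unadjusted p below 0.05, beside 17.6% of all genes, and the median was -0.24. ctsc, a protease that activates granzymes and the serine proteases of neutrophils in mammals, measured 108, 93.2 and 83.0 TPM in the control fish against 167, 172 and 137 TPM in the mutants (log2 fold change 0.74, adjusted p = 0.0713, and 0.0445 with the replicate block, in a range of 0.00195 to 0.238 over all alternatives). rab27a, which docks secretory granules at the membrane, measured 80.7, 89.4 and 85.2 TPM in the control fish against 56.1, 42.6 and 57.7 TPM in the mutants (log2 fold change -0.71, adjusted p = 0.0873). ctsc and rab27a thus stood apart in opposite directions with no overlap of the groups. Of the 13, groups did not overlap for 3 with the mutants higher and 4 with the mutants lower, beside 14% and 10.6% of all genes tested. With the block srgn, a granule proteoglycan gene that neutrophils express too, fell as well (log2 fold change -0.73, adjusted p = 0.0487, and 0.0949 without the block). The gene is in the neutrophil list too, and is 1 of the 5 neutrophil markers that fell with the block. It is named outside the rule for named genes, after its values were seen.

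Among 19 tested genes of natural killer and innate lymphoid cells, nfil3-5 fell and none rose, when 0.493% of all genes were called lower. A further 14 genes, 8 of them receptors of the nitr family, lay below the filter. nfil3-5, a relative of the factor NFIL3 that natural killer cells need in mice, measured 94.5, 101 and 102 TPM in the control fish against 47.7, 56.6 and 54.3 TPM in the mutants. Every grna-/- fish lay below every grna+/+ fish, with little spread inside a genotype (log2 fold change -0.90, SE 0.136, limma adjusted p = 0.0332). Its call was lost without grna+/+ replicate 2 (0.0523) or 3 (0.132) and without grna-/- replicate 1 (0.130), 2 (0.116) or 3 (0.0804). In grna+/+ its mean was 99.4 TPM, against 5.54 for eomesa and 4.74 for tbx21. Which cells gave the nfil3-5 transcript or its fall was not tested. il15, a growth factor of natural killer cells, averaged 2.098 ± 0.401 and 4.19 ± 1.33 TPM (adjusted p = 0.212). Of the 19, groups did not overlap for 1 with the mutants higher and 1 with the mutants lower, beside 14% and 10.6% of all genes tested.

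Interferon gamma and death receptor signalling had no called gene among 17 in limma or voom, with 7 at an unadjusted p below 0.05, beside 17.6% of all genes. crfb17, a cytokine receptor family gene, measured 29.3, 75.5 and 50.7 TPM in the control fish against 10.4, 7.32 and 17.2 TPM in the mutants (log2 fold change -2.04, adjusted p = 0.0526). It passed with the replicate block (0.0307) and without grna+/+ replicate 1 (0.0403), in a range of 0.00128 to 0.185 over all alternatives. jak2a, a kinase of cytokine receptors, measured 72.2, 51.9 and 56.0 TPM in the control fish against 99.0, 105 and 106 TPM in the mutants (log2 fold change 0.79, adjusted p = 0.0647), and passed without grna+/+ replicate 1 (0.0403), in a range of 0.00228 to 0.215. Both genes had groups apart, in opposite directions. Of the 17, groups did not overlap for 1 with the mutants higher and 5 with the mutants lower, beside 14% and 10.6% of all genes tested. The median log2 fold change of the list was 0.02, and -0.42 over the 15 genes left by a filter of 5 TPM.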

How the data were processed

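The table deposited by the authors gives TPM for each gene in 6 libraries, made with a stranded mRNA kit. The submitters' processing notes name featureCounts, Subread, DESeq2 1.26.0, GRCz10 and danRer10 without their roles. Which tool made the TPM, and whether strand entered the counting, are not given in the sources used. A Total row was read as reads counted and stayed out of all tests. Each library is 1 fish, grouped by its label, and p-values reflect differences between animals.

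log2(TPM + 1) of genes with a mean of 1 TPM or more was fitted with limma 3.58.1 in R 4.3.3, with genotype as the only term and trended variances. Calls used a two-sided Benjamini-Hochberg adjusted p below 0.05 over 10750 genes, and "rose" and "fell" mean called. A T cell gene and a kidney marker counted in the lists are not reported here by name. Members and lists were chosen with earlier results of these data known. Some genes, such as cd74a and srgn, stand in more than 1 list. Among genes reported, values in every library are given for the 6 most abundant and the 6 most changed genes of each set, and, for other pathway lists, called genes and the 2 with the smallest p were named, with genes called with the block in some lists.

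Reads behind each TPM were recovered as whole numbers (a multiple shared by all 6 libraries cannot be seen) in all 11875 genes above 0 in every library, each within 1e-06 of a whole read (in proportion above 10000 reads), and voom was run on them. After subtracting group means, fish with the same replicate number correlated across genes at 0.136, 0.153 and 0.237. Fish with different numbers correlated at -0.222 to -0.0058, and the subtraction ties these values to the former. As the former were all above 0.1, the numbers were treated as pairs in the block. The pairs were thus inferred from the data being tested, and calls made only with the block are no more than a description. No label says what a number shares. Scripts were tested on simulated data.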

Additional observations from a re-analysis of the deposited data

How the results depend on the processing

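The 28 genes reported by name were refitted under 15 alternatives: pseudocounts of 0.1 and 0.5, no filter and a filter of 5 TPM, quantile and median ratio scaling, the replicate block, library weights, voom on recovered reads, and each library left out. The direction held in all fits made for 17 genes. It turned for 11, none of them called. With quantile normalization the log2 fold change was -0.054 for lck, -0.072 for zap70, -0.11 for themis, -0.067 for tbx21, -0.072 for prf1.2 and 0.024 for fcer1gl, and with median ratio scaling -0.013 for prf1.2. With library weights it was 0.0068 for cd4-1, -0.34 for cd8a, -0.0027 for zap70, 0.10 for cd247l, -0.070 for themis, 0.10 for prf1.5 and 0.54 for gzm3. With 1 library left out it ran from -0.22 to 0.17 for cd4-1, -0.025 to 0.24 for lck, -0.048 to 0.14 for zap70, -0.14 to 0.063 for cd247l, -0.10 to 0.27 for themis, -0.17 to 0.40 for prf1.2, -0.58 to 0.34 for gzm3 and -0.25 to 0.038 for fcer1gl.

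Library weights gave grna+/+ replicate 3 a weight of 4.81 and grna-/- replicate 1 one of 2.94. The others ran from 0.327 in grna+/+ replicate 2 to 0.668 in grna-/- replicate 3, so the weighted fit rested mostly on 1 fish of each genotype. Of all 10750 genes tested the weights called 1656 higher and 791 lower, and the counts that follow are to be read beside these. Of the 16 T cell genes they called 1 higher (cd247) and 2 lower (sla2 and lat). Of the 13 cytotoxic genes they called 2 higher (nkl.2 and prf1.3). The weights also called 3 granule release genes higher and 4 lower, and 5 receptor, homing and help genes lower. Of interferon gamma and death receptor genes they called 4 higher and 5 lower. Of the other T cell transcription factors they called 3 higher and 5 lower, and of natural killer and innate lymphoid genes 3 and 1. Leaving out 1 library called 0 to 1 T cell genes higher. Over all genes, 71 rose and 53 fell, against 23 and 21 with no filter, 45 and 29 at 5 TPM, 1656 and 791 with library weights, 42 and 29 with voom, and 10 to 112 and 5 to 92 with a library left out. The most were called without grna+/+ replicate 1 (112 and 92), and each other library left out lowered at least 1 count by over 1.5 times. With the replicate block 149 rose and 122 fell, and no T cell or cytotoxic gene was called. grna stayed between -1.07 and -0.97 with a library left out, and its call was then lost in 4 of 6 fits. The cause of these shifts was not tested. Genes with under 50 reads per library, such as cd8a and gzm3, are limited by depth.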
